A study of Mus musculus with 2 samples.

Results

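Epha4, Pdgfra and Pcdh8 encode surface molecules of the paraxial mesoderm and of the borders between somites, and the peaks of the transcription factor Msgn1 were described around these 3 genes. The members were all peaks in a list of 4087 whose midpoint lay within 100 kb of one of the genes, with the genes placed at chr1:77363-77511 kb (Epha4), chr5:75548-75594 kb (Pdgfra) and chr14:80166-80171 kb (Pcdh8) on mm9. There were 7 such peaks: 6 at Epha4, 1 at Pdgfra and 0 at Pcdh8. The members were selected on the peak positions in this list, with the peaks' scores already known, so their presence near Epha4 and Pdgfra is a description and was not tested.

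The study asked which places in the genome Msgn1 occupies while stem cells differentiate. Chromatin immunoprecipitation with sequencing (ChIP-seq) was done in 2 libraries, both from the mouse stem cell line A2lox FMsgn1 (strain C57BL/6), in which doxycycline switches on a FLAG-tagged Msgn1. Cells were grown as embryoid bodies, the free-floating aggregates in which such cells differentiate, for 2 days, and doxycycline at 1 ug/ml was then present for 36 h before collection. The FLAG ChIP library was made with the anti-Flag M2 antibody and the Input library with none, so both groups share the line, the transgene and the doxycycline. Msgn1 was therefore expressed from an induced transgene, and a library from cells without doxycycline was not analysed here. There was 1 library per group, without replicates, and the list gives neither read counts nor depth, so no value below carries a replicate error or a counting interval unless one is stated. No expression values were used, so neither the presence of paraxial mesoderm cells nor the level of the 3 genes could be checked.

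Msgn1, or mesogenin 1, belongs to the basic helix-loop-helix factors and is made in the presomitic mesoderm, the tissue on both sides of the neural tube that is cut into somites. Factors of this class bind short DNA words called E-boxes, of the form CANNTG. Epha4 is a receptor tyrosine kinase for ephrins. In the embryo, Eph receptors and ephrins on facing cells keep cells apart, and Epha4 marks the forming somite border. Pdgfra is a receptor tyrosine kinase for platelet-derived growth factors and is widely used as a surface marker of paraxial mesoderm, including in differentiating stem cells. Pcdh8, also called Papc, is a protocadherin of the anterior presomitic mesoderm that acts in cell adhesion and movement as somites separate.

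The start of each gene is where such a factor could act nearest to transcription, so the sequences around the 3 starts are shown first. They are the RefSeq windows from 250 bases before to 50 bases after the start, on GRCm38.p6 and not on the mm9 of the peaks. The coordinates of the windows and of the peaks therefore cannot be compared directly, and the peaks are placed below by their distance from each gene's 5′ end on mm9. Epha4 (chr1:77515039-77515338, minus strand), Pdgfra (chr5:75152001-75152300, plus strand) and Pcdh8 (chr14:79771263-79771562, minus strand) were all matched by symbol. Each window is written 5′ to 3′ in the direction of the gene, with every E-box CANNTG in capitals.
Epha4: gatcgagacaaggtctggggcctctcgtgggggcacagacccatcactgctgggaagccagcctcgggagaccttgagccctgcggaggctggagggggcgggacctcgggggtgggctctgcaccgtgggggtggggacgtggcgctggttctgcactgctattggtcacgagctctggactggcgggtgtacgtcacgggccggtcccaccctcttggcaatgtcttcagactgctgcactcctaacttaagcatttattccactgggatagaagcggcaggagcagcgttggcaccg
Pdgfra: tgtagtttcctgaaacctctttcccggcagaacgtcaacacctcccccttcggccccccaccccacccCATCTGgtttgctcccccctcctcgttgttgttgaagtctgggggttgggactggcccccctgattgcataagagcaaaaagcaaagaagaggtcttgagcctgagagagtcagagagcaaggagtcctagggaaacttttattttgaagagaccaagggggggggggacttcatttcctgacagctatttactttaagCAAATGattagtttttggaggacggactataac
Pcdh8: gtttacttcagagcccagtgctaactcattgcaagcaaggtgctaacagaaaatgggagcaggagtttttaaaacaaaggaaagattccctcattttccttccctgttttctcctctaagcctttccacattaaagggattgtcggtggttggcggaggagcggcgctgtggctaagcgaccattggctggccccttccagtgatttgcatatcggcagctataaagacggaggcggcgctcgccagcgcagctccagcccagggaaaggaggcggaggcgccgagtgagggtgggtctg

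The Pdgfra window held 2 E-boxes, and those of Epha4 and Pcdh8 held 0. The first in Pdgfra was CATCTG, which reads CAGATG on the other strand, and its first base lay 182 bases before the start. The other was CAAATG, with its first base 17 bases after the start. CANNTG reads the same on both strands, and 72.3% of the 32851 mouse windows in the same table held at least 1, while 39.6% held at least 2. CAGATG or its reverse complement was in 17.2% of the windows and CAAATG or its reverse complement in 13.7%. Other E-boxes searched for on both strands were in none of the 3 windows: CAGCTG, which was in 16.3% of all windows, CAGGTG with 20.2%, CACGTG with 7.2% and CATATG with 3.9%. These letters describe the window only, and sequence under the peaks themselves was not analysed here.

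In the peak list, no part of a member peak lay over the 5′ end of a gene as placed on mm9. The nearest peak to the Pdgfra 5′ end had its midpoint 1.8 kb away, on the upstream side. For Epha4 the nearest midpoint was 49.7 kb away, on the downstream side and within the gene. For Pcdh8 it was 127 kb away, upstream and outside the limit. Gene ends were given to the nearest kb. In the RefSeq table the start used for Pdgfra lies 929 bases inside the gene's annotated span, against 19 bases for Epha4 and 0 for Pcdh8, so a distance to a start of Pdgfra depends on which transcript is meant.

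**Figure D1:**
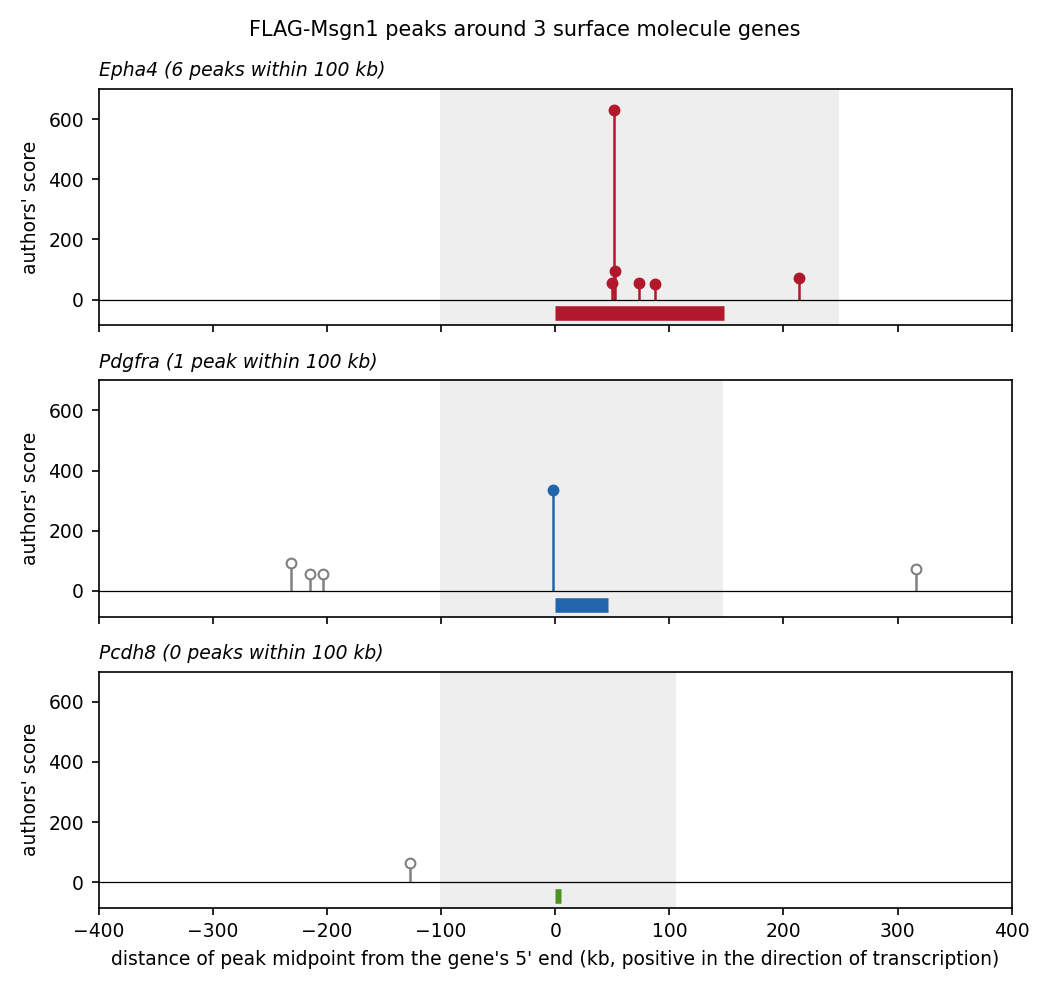
Peaks around Epha4, Pdgfra and Pcdh8, by the distance of the peak midpoint from the gene's 5′ end (kb, positive in the direction of transcription), with the authors' score as height. Thick bars are the gene spans, grey areas the spans with 100 kb on each side, filled points the 7 members and open points other listed peaks. A reader should see 1 high peak at Epha4 (629.8), 1 at Pdgfra (337) and none in the grey area of Pcdh8.

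Epha4 had the most peaks of the 3 genes, and 5 of its 6 lay inside the gene, which spans 148 kb. The score of each peak is the authors' own value, deposited for the FLAG library over Input. Its scale is not given in the sources used here, so it serves only to rank peaks within the list, where it runs from 50 to 1107 with a median of 72.8. The strongest Epha4 peak, chr1:77459442-77460376, was 935 bp wide and scored 629.8, which ranked 12th of 4087 and 2nd of the 291 peaks on chromosome 1. Its midpoint lay 51.1 kb downstream of the 5′ end, at 34.5% of the gene's length.

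On both sides of that peak lay a weaker one, less than 1 kb away. The peak chr1:77458174-77459007, on the side of the gene's 3′ end, was 834 bp wide, scored 96.1 and ranked 1268th. The gap between it and the strongest peak was 434 bp. The peak chr1:77460807-77461819, on the side of the 5′ end, was 1013 bp wide, scored 55.9 and ranked 3283rd, across a gap of 430 bp. The 3 peaks together spanned 3646 bp, of which 2782 bp were inside a called peak. Such close groups were rare in the list: 68 of 4067 neighbouring pairs were less than 1 kb apart, and only 2 stretches had 3 or more peaks with every gap under 1 kb. The other stretch, chr4:154561292-154564603, spanned 3312 bp and its highest score was 111. Of the 24 peaks that scored 500 or more, 2 had another peak less than 1 kb away, against 134 of all 4087. The strongest Epha4 peak was 1 of the 2. This comparison was chosen after the values had been seen, and whether the 3 are separate binding places or 1 place that the peak calling divided was not tested.

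**Figure D2:**
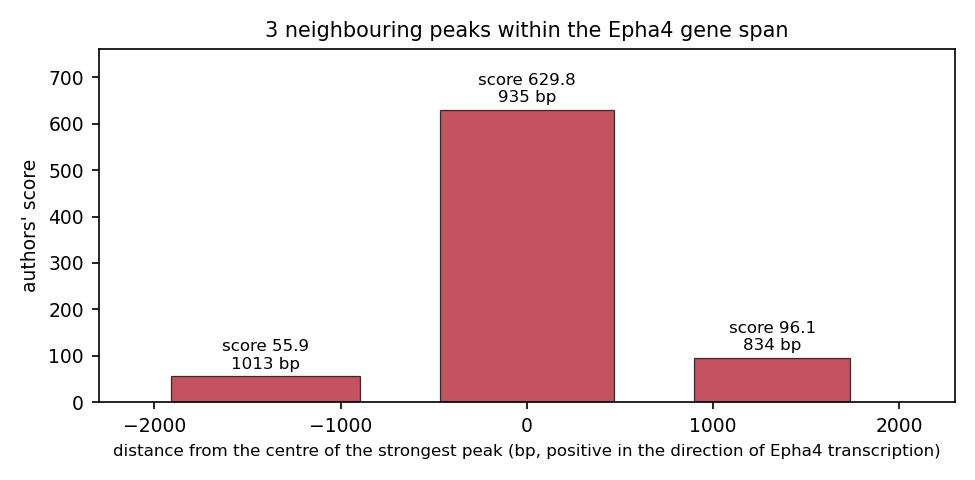
The 3 neighbouring peaks inside Epha4, by distance from the centre of the strongest (bp, positive in the direction of transcription). Each bar is as wide as its peak and as high as the authors' score: the middle bar reaches 629.8, and the outer bars 55.9 and 96.1.

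The other peaks inside Epha4 were weak and farther into the gene. At 73.7 kb from the 5′ end lay chr1:77436863-77437662, 800 bp wide, with a score of 55.3 at rank 3364. At 87.4 kb lay chr1:77423373-77423811, 439 bp wide, with a score of 53.4 at rank 3580. It was the narrowest of the 7 members, and 96.0% of all listed peaks were at least as wide. The 5 peaks inside the gene covered a stretch of 38.4 kb between 33.6% and 59.1% of its length from the 5′ end, and the parts of the gene before and after it held no listed peak. This stretch is 1 of the runs of neighbouring peaks in the list, with gaps of 13.1 and 20.5 kb between its weak peaks and the close group.

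The 6th Epha4 peak lay beyond the gene's 3′ end. It was chr1:77297160-77298080, 921 bp wide, with a score of 73.4 at rank 2012, close to the median of the list. Its midpoint was 65.4 kb from the gene span, the largest distance of any member, and the gap to the nearest peak inside Epha4 was 125 kb. In the gene order of GRCm38.p6, Slc4a3 is the next protein-coding gene on that side and Pax3, a transcription factor of the dermomyotome, the next on the 5′ side. No peak lay within 100 kb on the 5′ side. The first one there, chr1:78112286-78113198 (score 63.6), was 602 kb from Epha4, and the next on the 3′ side, chr1:77050738-77051223 (score 59.2), was 312 kb away.

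Pdgfra had a single peak, and it lay beside the gene's 5′ end. This peak, chr5:75545700-75546652, was 953 bp wide and scored 337, which ranked 81st of 4087 and 4th of the 218 peaks on chromosome 5. Only 1.98% of the list scored as high or higher, and 9.03% was as wide or wider. The whole peak lay upstream of the span given for the gene, and no listed peak had its midpoint inside the 46 kb of the gene.

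The Pdgfra peak had no other listed peak close by, whereas the strongest peak of Epha4 had one less than 1 kb away on each side. Its nearest neighbour on the 5′ side, chr5:75344374-75345022 (score 57.9), was 201 kb away from end to start, and the one on the 3′ side, chr5:75863586-75864525 (score 71.9), 317 kb away. The median distance between neighbouring peaks in the list was 278 kb, so such spacing is common. In the gene order of GRCm38.p6, Gsx2 is the next protein-coding gene on the 5′ side of Pdgfra and Kit, another receptor tyrosine kinase gene, the next on the 3′ side.

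Pcdh8 had no listed peak within 100 kb on either side of its span of 5 kb. The nearest, chr14:80297857-80298326, was 470 bp wide with a score of 65.1 at rank 2478, and its midpoint was 127 kb upstream of the gene. With a limit of 200 kb in place of 100 kb, this peak would count and Pcdh8 would have 1. On the 3′ side the first peak, chr14:79211283-79211923 (score 117), was 954 kb away. Pcdh8 thus stood in a stretch of 1086 kb between neighbouring peaks, and 15.7% of the 4067 neighbouring pairs of the list were as far apart or farther. That share counts each pair once, whatever the distance. Long stretches cover more of the genome, so a given position falls in one more often than the share says. In the gene order of GRCm38.p6 the next protein-coding genes are Olfm4 on the 5′ side and Cnmd on the 3′ side. The list holds only places that passed the authors' limit, with no score under 50, so a weaker signal at Pcdh8 was not detectable from it.

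To show how common such counts are, each chromosome was divided, between its outermost peaks, into adjoining windows. Each was as long as the span of a gene with 100 kb on each side. Chromosome ends beyond the outermost peaks were left out. At Epha4 the length was 348 kb, and 0.124% of 7241 such windows held 6 or more peaks (95% exact binomial interval 0.0568 to 0.236%, which treats windows as independent), while 35.9% held at least 1. The windows are all those of 1 list, so the interval covers neither replicate error nor the placing of the windows. With the windows shifted by 0.5 of their length, an alternative chosen after seeing the data, the share with 6 or more was 0.207%. The count of 6 takes the close group as 3 peaks. With peaks less than 1 kb apart joined, Epha4 had 4, and at a score of 60 or more it had 3. Of the 7241 unshifted windows, with no joining and no score limit, 80 held exactly 4 peaks and 211 exactly 3. A score as high as that of the strongest Epha4 peak occurred in 0.166% of the unshifted windows. At Pdgfra the length was 246 kb, and 28.2% of 10250 windows held 1 peak or more, so the number of peaks there is a common one. A peak with a score of 337 or more was in 0.761% of these windows. Both score shares include the window that holds the gene's own strongest peak, and they largely restate that peak's rank in the list. At Pcdh8 the length was 205 kb, and 75.7% of 12302 windows held no peak, so its empty window is the usual case. The windows were laid without regard to genes, whereas the 3 genes were chosen with these peaks known, and the shares are therefore no test.

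**Figure D3:**
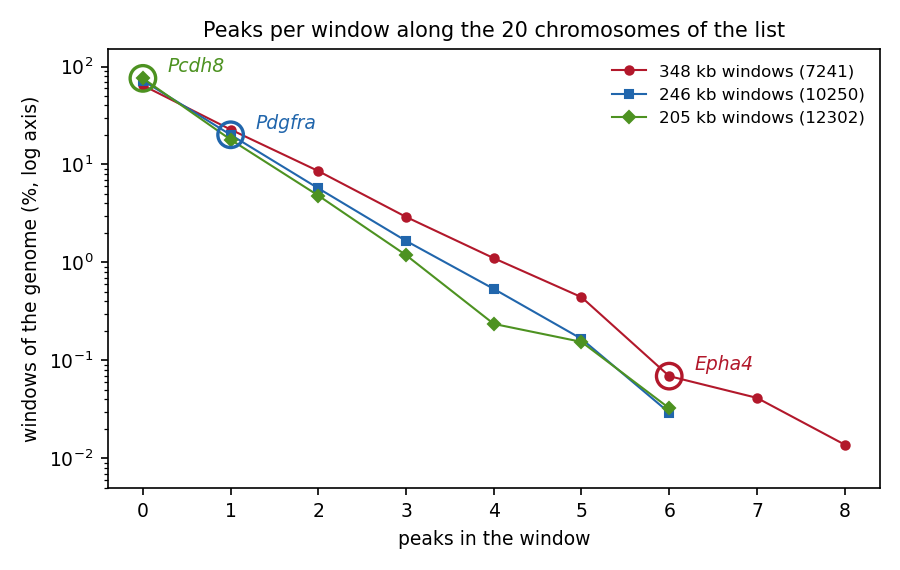
Share of windows (%, log axis) by the number of peaks in the window, for windows of 348, 246 and 205 kb laid along the 20 chromosomes of the list. Circles mark the number of peaks at the gene whose window has that length: 6 at Epha4, 1 at Pdgfra and 0 at Pcdh8.

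The 7 members ranged widely in score. Of these, 2 scored 100 or more, 1 at Epha4 and 1 at Pdgfra, against 28.6% of the list, and 3 scored under 60, all at Epha4, against 30.0% of the list. With only 7 peaks, chosen by position, no difference from the list is read from these counts. The median score of the members was 73.4, next to 72.8 for all peaks. At a score limit of 100, Epha4 and Pdgfra would each keep 1 peak, so the larger number at Epha4 rests on peaks that scored between 53.4 and 96.1.

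In width the members lay mostly in the upper part of the list. All but the peak of 439 bp, 6 of 7, were wider than the list's median of 678 bp, and the median of the members was 921 bp. The widest, 1013 bp, was the weak peak beside the strongest one at Epha4, and 5.19% of the list was as wide or wider. The strongest peaks of Epha4 and Pdgfra were alike in width, 935 and 953 bp, although their scores were 629.8 and 337. Width and score come from the same peak calling, and the 7 share 1 pair of libraries. Of the 6 wider peaks, 3 form the close group at Epha4, which may be 1 place. With only 7 peaks, no difference from the list is read from the widths.

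**Figure D4:**
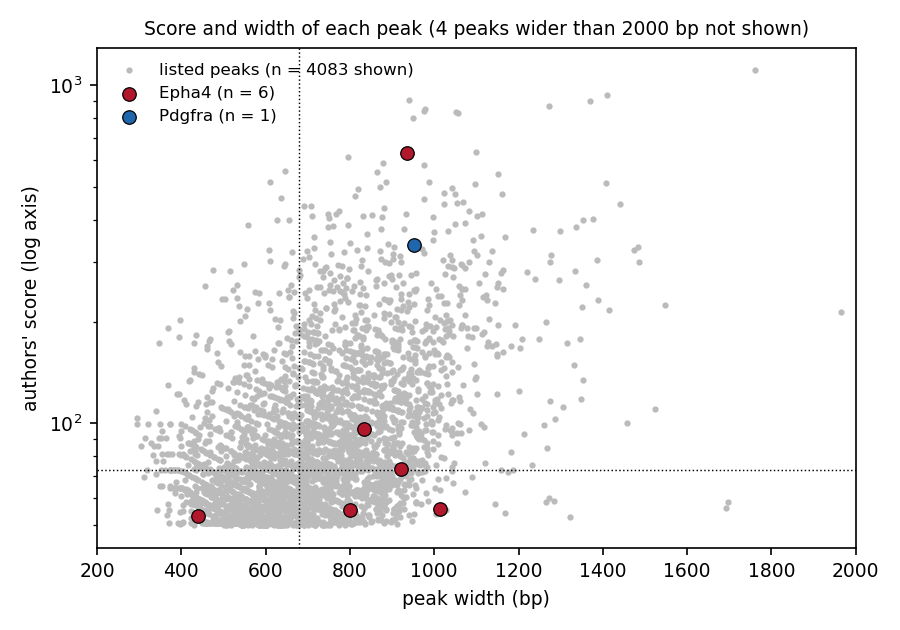
Score (log axis) against width (bp) for the listed peaks in grey, of 4087 in all, with the 4 peaks wider than 2000 bp beyond the axis and not shown, and with the 6 peaks at Epha4 in red and the 1 at Pdgfra in blue. Dotted lines are the medians of the list, 72.8 and 678 bp, and 6 of the 7 coloured points lie to the right of the vertical one.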

How the data were processed

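ChIP-seq was done by the authors on 1 FLAG ChIP and 1 Input library. MACS called the peaks, per the peak names of the deposited list. CASAVA 1.4, FastQC and the build mm9 are named in the submitters' processing notes, which name no aligner and no MACS version or settings. The score of each peak was deposited by the authors without a header or stated scale. The other deposited columns used are the start and end of each peak; starts were read as 0-based and are printed 1-based.

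Gene spans on mm9 were given to the kb, and peaks were assigned by midpoint within 100 kb. The genes, lists and windows were chosen with earlier results of these data known, and every member peak and the nearest peak outside on each side is given. Strand and promoter windows came from RefSeq (GRCm38.p6) for 3 of 3 genes, and from the same build the order of neighbouring genes. Positions were not converted. Exons, introns and other Eph, ephrin, PDGF and cadherin genes were not analysed, since no mm9 annotation was used. On each chromosome, windows were laid without overlap between its outermost peaks, and incomplete last windows were left out. Depth is unknown. The counting was checked with peaks planted in the deposited list, and with a simulated list and sequence. Of these checks, 12 of 12 gave the value set beforehand. Alternatives were other distance limits, overlap in place of midpoint, score limits of 60 and 100, joined peaks and shifted windows. The software was numpy 2.4.6, scipy 1.17.1, pandas 2.3.3 and matplotlib 3.10.9 under Python 3.11.15.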

Additional observations from a re-analysis of the deposited data

How the results depend on the processing

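The number of peaks at Epha4, 6, fell to 3 at a score of 60 or more and to 1 at 100 or more. It was 4 with peaks less than 1 kb apart joined, 5 within 50 kb and 6 within 200 kb or by any overlap. Pdgfra had 1 peak under each of these 6 alternatives. Pcdh8 had 1 peak within 200 kb and 0 under the other 5. The highest scores at Epha4 and Pdgfra were the same within 50 and 200 kb, and no highest score exists for Pcdh8 within 100 kb. The median score of the peaks at the 3 genes, 73.4, was 76.0 within 50 kb and 69.2 within 200 kb, as 1 peak then leaves or enters it. Windows shifted by 0.5 of their length, an alternative chosen after seeing the data, gave 0.207% with 6 or more peaks at the length of Epha4, against 0.124%. They gave 27.8% with a peak at the length of Pdgfra and 75.7% without one at that of Pcdh8. No paired analysis was possible because each group has 1 library, and for the same reason no replicate could be left out. The list holds no read counts, so its depth is unknown, and a place under the authors' limit cannot be told from one without signal.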
